A study of Mus musculus with 6 samples.

Results

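The distal convoluted tubule is the short nephron segment after the loop of Henle in which sodium chloride is taken up by the thiazide-sensitive cotransporter and in which the last adjustments of magnesium and calcium are made. Here 10 of its genes were followed by symbol in the kidney expression tables, out of 24346 genes listed in each. The list was given by name and held 5 genes of transport and ion binding (Slc12a3, Trpm6, Trpv5, Pvalb and Calb1) and 5 of the WNK kinase cascade (Wnk1, Wnk4, Klhl3, Stk39 and Oxsr1). All 10 were found in every library and all 10 passed the minimum for testing, a mean of 1 FPKM. The tables do not name their unit, which was taken as FPKM from the tool that made them (Cufflinks) and from the values. FPKM scales the fragments of a gene to the length of its transcript and to the depth of the library, so that levels of different genes can be set side by side.

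Kidney messenger RNA was sequenced from mice after unilateral nephrectomy, the removal of 1 kidney, which is followed by growth of the kidney that stays. All mice ate a diet without serine for 1 week before the operation and were killed 2 days after it. The vehicle group (3 samples) drank water with no addition and the D-serine group (3 samples) drank water with 0.1% D-serine, the mirror-image form of L-serine. The comparison set D-serine against vehicle in the growing kidney. The sources used here give neither the strain, sex and age of the mice nor whether each sample was 1 mouse, so the p-values reflect only how far these samples spread, which may be technical. Sham-operated mice were not analysed here. Whole kidney was used, in which fewer cells of a segment and less RNA per cell cannot be told apart.

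In this segment the WNK kinases respond to chloride and, through it, to blood potassium. They phosphorylate the related kinases SPAK (gene Stk39) and OSR1 (gene Oxsr1), which in turn phosphorylate and activate the sodium chloride cotransporter NCC (gene Slc12a3). KLHL3 is the adaptor through which a CUL3 ubiquitin ligase marks WNK kinases for destruction, and mutations in several of these genes cause inherited disorders of blood pressure and potassium. Most of this control acts on proteins by phosphorylation and breakdown, which messenger RNA does not show.

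The start regions of 4 members are shown because the genes that mark the segment share a short string of letters there. RefSeq (GRCm38.p6, the assembly also known as mm10) gave 10 start regions for 9 members, all but Calb1. The windows run from 250 to 11 bases before the RefSeq transcription start. For Trpm6 that start (18749730) lies upstream of the GENCODE gene start given below (18749983), so its window is farther from the latter. Capitals mark matches, on either strand, to any of 4 strings: GCCNNNGGC for the AP-2 transcription factors, TATAAA for the TATA box, CCAAT for the box of that name, and AGAACA for the core of steroid receptor sites. The windows lie at chr8:94328958-94329197 on the plus strand for Slc12a3, chr19:18749480-18749719 on the plus strand for Trpm6, chr15:78206411-78206650 on the minus strand for Pvalb and chr11:101260317-101260556 on the plus strand for Wnk4. Slc12a3 is shown as the defining gene of the segment, Trpm6 and Pvalb as its other markers, and Wnk4 as the WNK kinase with the larger difference below.
Slc12a3: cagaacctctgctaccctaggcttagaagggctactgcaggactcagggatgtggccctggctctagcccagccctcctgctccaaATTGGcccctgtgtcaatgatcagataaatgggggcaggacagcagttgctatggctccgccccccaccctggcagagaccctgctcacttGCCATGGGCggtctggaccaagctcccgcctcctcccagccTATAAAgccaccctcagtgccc
Trpm6: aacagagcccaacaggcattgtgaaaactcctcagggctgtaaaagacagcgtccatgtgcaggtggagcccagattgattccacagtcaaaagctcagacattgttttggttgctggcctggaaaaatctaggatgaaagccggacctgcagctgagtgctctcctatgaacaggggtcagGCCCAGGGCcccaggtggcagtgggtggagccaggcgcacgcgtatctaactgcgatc
Pvalb: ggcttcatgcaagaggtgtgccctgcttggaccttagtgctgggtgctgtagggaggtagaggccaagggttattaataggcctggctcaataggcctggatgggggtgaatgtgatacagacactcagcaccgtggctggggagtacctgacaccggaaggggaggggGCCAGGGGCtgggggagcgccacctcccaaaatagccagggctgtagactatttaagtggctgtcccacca
Wnk4: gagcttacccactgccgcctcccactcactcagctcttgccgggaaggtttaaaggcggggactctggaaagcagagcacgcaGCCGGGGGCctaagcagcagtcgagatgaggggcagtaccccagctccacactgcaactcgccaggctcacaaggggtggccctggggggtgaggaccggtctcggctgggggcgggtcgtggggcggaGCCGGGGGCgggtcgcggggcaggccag
The AP-2 string stood in 7 of the 10 member windows, those of Slc12a3, Trpm6, Wnk1, Wnk4 and Stk39 and both windows of Pvalb. The Wnk1 window lies at the outer end of the gene, not at the internal start of the short form described below. Among all 32851 RefSeq start regions cut to the same 240 bases, 13% held it. Windows rich in G and C hold it more often, and the share was 22.1% of the 12270 windows with 55 to 75% G and C, a range in which 6 of 7 member windows held it. Both windows of Pvalb are among these, and that of Trpm6 lies on the lower edge of the range. The windows of Klhl3 and Trpv5, without the string, fall just below the range, and that of Stk39, with it, falls above. The count therefore depends on where the range was cut, and an excess over other windows was not tested. In Wnk4 the string came 2 times, 167 and 38 bases before the start. Slc12a3 also held a TATA box 32 bases before the start, as did Trpv5 43 bases before it. TATAAA stood in 12.1% of all windows, CCAAT in 33.0% and AGAACA in 15.5%. Among the member windows CCAAT was found only in that of Slc12a3, and AGAACA in none. The strings were chosen after the expression values were known, and a match is a description of letters, not of a bound site.

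All 3 defining genes of the segment were present in each of the 6 libraries. Slc12a3 was the most abundant of the 10 with vehicle (337 ± 24.5 FPKM, SD, n = 3), followed by Calb1 (206 ± 50.9), Pvalb (92.6 ± 11), Wnk4 (66.5 ± 3.65) and Wnk1 (45.7 ± 4.83). These 5 levels were separate from each other, in that no library of one gene reached the range of the next. Stk39 (12.3 ± 1.87 FPKM) and Oxsr1 (11.7 ± 0.759 FPKM) overlapped, so that the 2 effector kinases had no order. The lowest 3 were Trpv5 (5.97 ± 0.220 FPKM), Trpm6 (5.15 ± 0.674 FPKM) and Klhl3 (4.63 ± 0.764 FPKM), in which each neighbour overlapped the next. With D-serine the range of Calb1 reached that of Slc12a3, at 273 to 391 against 306 to 448 FPKM. Depth limits the lowest of these most: a rough conversion through transcript length put Trpv5 at 115 to 206 fragments per library and Slc12a3 at 9980 to 13700.

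**Figure D1:**
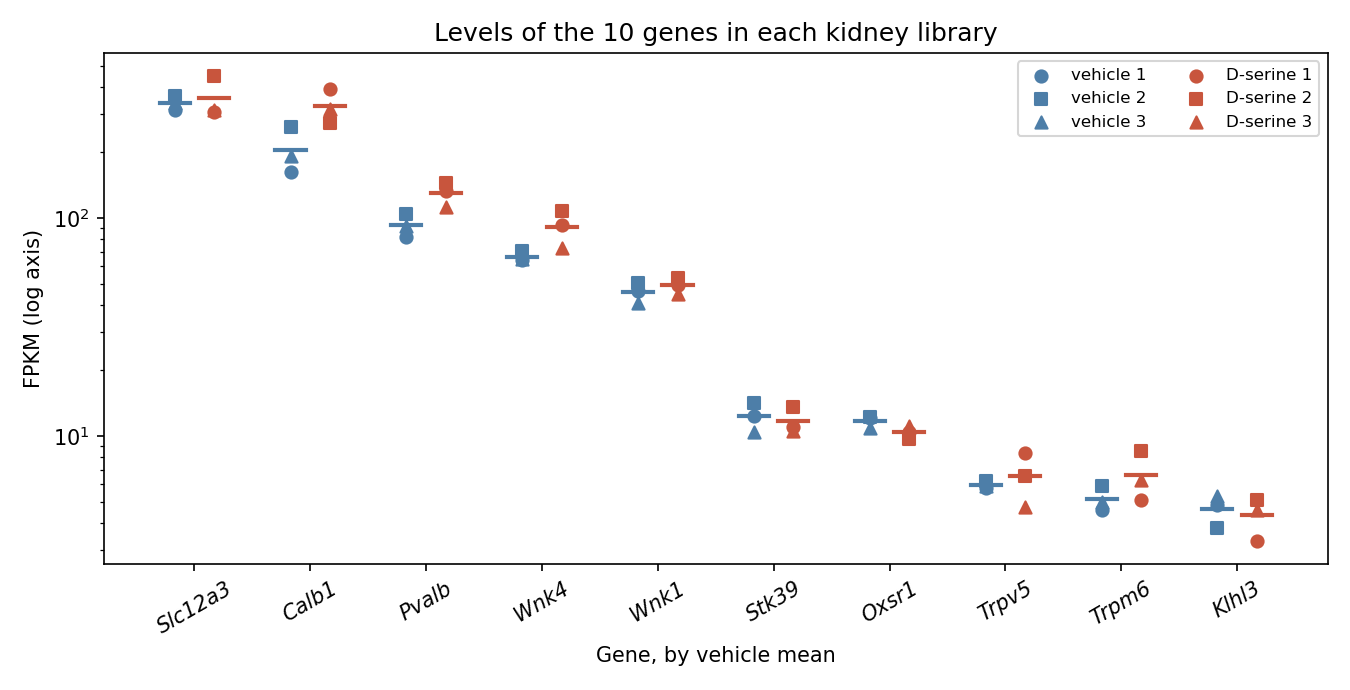
FPKM of each of the 10 genes (log axis) in the 3 vehicle libraries (blue) and the 3 D-serine libraries (red), with the group mean as a bar and the replicate number as the symbol. Calb1, Pvalb and Wnk4 have every red point above every blue point, and for the other 7 genes the groups overlap.

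Calb1, Pvalb and Wnk4 were the members with the larger differences, each higher in all 3 D-serine libraries than in all 3 vehicle libraries. Over the 11737 genes tested in limma with Benjamini-Hochberg adjustment, 0 of the 10 members passed an adjusted p of 0.05, where 0.0767% of all genes did, and 3 of 10 had an unadjusted p under 0.05, all higher. The share of all genes with such a p was 13.1% higher and 27.7% in either direction. Groups that did not overlap, with D-serine above, were found in 16.5% of all genes and in 3 of the 10. With D-serine below they were found in 19.4% of all genes and in 0 of the 10. The median log2 difference of the 10, D-serine minus vehicle on the log2(FPKM + 1) scale, was 0.096 and that of all genes -0.0078. It was positive in 7 members, against 48.9% of all genes. The members' median was 0.060 without D-serine replicate 2, 0.22 without D-serine replicate 3 and 0.18 with a trend on transcript length and GC content removed.

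**Figure D2:**
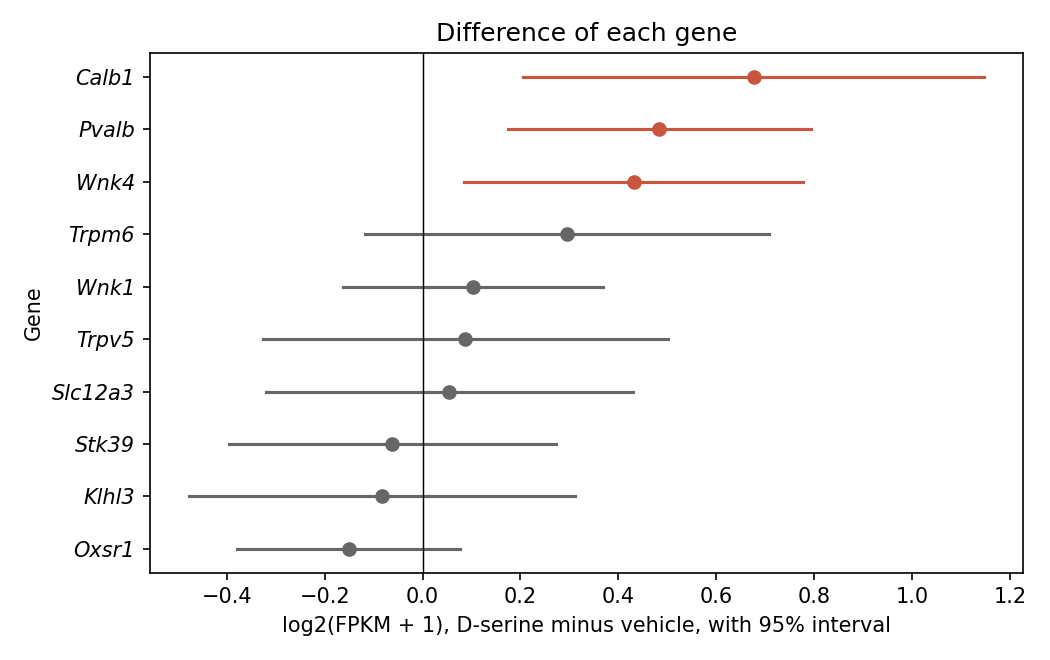
Log2 difference (D-serine minus vehicle, log2(FPKM + 1)) of each of the 10 genes, with its 95% interval from limma. Red marks the 3 genes whose libraries do not overlap between the groups. Their intervals lie above 0 and those of the other 7 genes include 0.

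Slc12a3 encodes NCC, the cotransporter that defines the segment and the target of thiazide diuretics. It lies on chromosome 8 (94329201 to 94366214, mm10, plus strand). It measured 313, 362 and 336 FPKM in the vehicle libraries and 306, 448 and 312 in the D-serine libraries. D-serine replicate 2 was the highest of the 6, while D-serine replicates 1 and 3 were just below all 3 vehicle libraries. The log2 difference was 0.055 ± 0.16 (SE, limma adjusted p = 0.84), with a 95% interval from -0.32 to 0.43. Without D-serine replicate 2 the difference was -0.12 (adjusted p = 0.47). The interval holds differences of either sign.

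Trpm6 encodes the apical channel through which the segment takes up magnesium (chromosome 19, 18749983 to 18892511). It measured 4.59, 5.90 and 4.97 FPKM in the vehicle libraries and 5.10, 8.54 and 6.30 in the D-serine libraries. Of the 3 D-serine libraries 2 were above all vehicle libraries and the groups overlapped through replicate 1. The log2 difference was 0.29 ± 0.18 (SE, limma adjusted p = 0.30).

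Pvalb encodes parvalbumin, a calcium-binding protein of fast muscle and of some neurons that in the kidney marks the early part of the segment (chromosome 15, 78191114 to 78206400, minus strand). It measured 82.1, 104 and 91.7 FPKM in the vehicle libraries and 133, 144 and 113 in the D-serine libraries. The lowest D-serine library was above the highest vehicle library, and the means differed 1.40-fold. The log2 difference was 0.48 ± 0.13 (SE, 95% interval 0.17 to 0.79, limma adjusted p = 0.090). Of 8 skeletal muscle markers, Myh2, Myh4 and Tnnt3 were listed at 0 in all 6 libraries. The 8 summed to 1.89 to 2.76 FPKM with vehicle and 2.61 to 4.19 FPKM with D-serine. Most of this was Mylpf, at 2.04 ± 0.261 and 2.96 ± 0.868 FPKM (SD, n = 3 each), with overlapping groups. A part of muscle in the Pvalb values was not tested.

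Calb1 encodes calbindin-D28k, which ferries calcium through cells of the late distal convoluted tubule and the connecting tubule (chromosome 4, 15881264 to 15908064). It measured 163, 262 and 192 FPKM in the vehicle libraries and 391, 273 and 315 in the D-serine libraries. The groups did not overlap, but vehicle replicate 2 came close to D-serine replicate 2. The means differed 1.59-fold and the log2 difference was 0.68 ± 0.20 (SE, 95% interval 0.21 to 1.15, limma adjusted p = 0.10), the largest of the 10. Trpv5, the apical calcium channel of the same cells (chromosome 6, 41652173 to 41680769), measured 5.80, 6.22 and 5.89 FPKM in the vehicle libraries and 8.38, 6.56 and 4.72 in the D-serine libraries. The vehicle libraries lay within a narrow band and the D-serine libraries lay on both sides of it. The log2 difference of Trpv5 was 0.088 ± 0.18 (SE, limma adjusted p = 0.77), and it was -0.083 without D-serine replicate 1.

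Wnk4 encodes the WNK kinase best known for its control of NCC (chromosome 11, 101260567 to 101277409). It measured 63.9, 70.7 and 65.0 FPKM in the vehicle libraries and 92.5, 108 and 72.9 in the D-serine libraries. All D-serine libraries were above all vehicle libraries, with replicate 3 close to the vehicle range. The means differed 1.37-fold and the log2 difference was 0.43 ± 0.15 (SE, 95% interval 0.085 to 0.78, limma adjusted p = 0.12). Without D-serine replicate 3 the difference was 0.58 and passed (adjusted p = 0.047), in a fit that called 608 genes, or 5.19% of those tested (2.49% higher). An antisense gene, Gm11615, shares 306 exon bases (7.38%) with Wnk4 in the GENCODE M21 annotation. The sources used here do not say whether reads were assigned by strand.

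Wnk1 encodes the other WNK kinase of the segment (chromosome 6, 119923969 to 120038672). In the kidney a short form without most of the kinase domain is made from an internal start beside the full-length form. The annotation holds 26 transcripts and the tables give 1 value for the gene, so the forms were not separated. Wnk1 measured 46.4, 50.1 and 40.6 FPKM in the vehicle libraries and 49.3, 53.0 and 45.0 in the D-serine libraries. The groups overlapped, and the log2 difference was 0.10 ± 0.11 (SE, 95% interval -0.16 to 0.37, limma adjusted p = 0.57).

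The kinases that relay the WNK signal had overlapping groups. Stk39 (chromosome 2, 68210445 to 68472268) measured 12.4, 14.1 and 10.4 FPKM in the vehicle libraries and 11, 13.6 and 10.6 in the D-serine libraries. Oxsr1 (chromosome 9, 119238432 to 119322427) measured 12.1, 12.2 and 10.8 FPKM in the vehicle libraries and 10.5, 9.73 and 11.2 in the D-serine libraries. For Oxsr1, 2 of the 3 D-serine libraries were below all vehicle libraries. Its log2 difference was -0.15 ± 0.097 (SE, limma adjusted p = 0.34), and that of Stk39 was -0.062 ± 0.14 (SE, adjusted p = 0.80). The 95% interval of Oxsr1 ran from -0.38 to 0.077 and that of Stk39 from -0.40 to 0.27. Klhl3, the ligase adaptor (chromosome 13, 58000228 to 58113592), measured 4.82, 3.79 and 5.28 FPKM in the vehicle libraries and 3.31, 5.11 and 4.59 in the D-serine libraries. Its groups covered nearly the same range, and the log2 difference was -0.083 with an SE of 0.17 (adjusted p = 0.77 in limma).

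**Figure D3:**
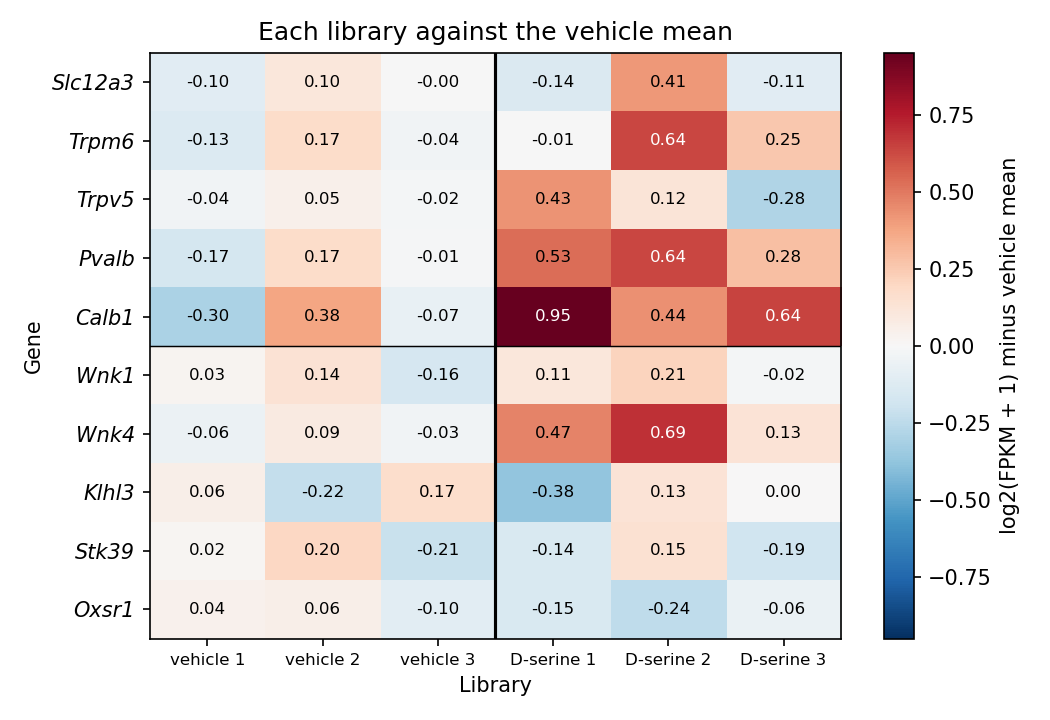
Level of each gene in each library as log2(FPKM + 1) minus the mean of the vehicle libraries, with the 5 transport genes above the line and the 5 WNK cascade genes below it. D-serine replicate 2 is highest for Slc12a3, Trpm6, Pvalb and Wnk4, and D-serine replicate 1 for Calb1 and Trpv5.

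Most members were highest in replicate 2 of their group. With D-serine, replicate 2 held the highest value of 7 members, replicate 3 that of Oxsr1 and replicate 1 that of Calb1 and Trpv5, the calcium genes of the late segment. With vehicle, replicate 2 held the highest value of 9 members, all but Klhl3, and of 6 members after each library was scaled to the same sum. Markers of other nephron segments had extremes in the same libraries. In both groups replicate 2 had the highest summed level of 9 principal cell markers (622 FPKM with vehicle, 1028 with D-serine) and of 10 intercalated cell markers (346 and 480 FPKM). It also had the lowest sum of 8 markers of the proximal tubule segments S1 and S2 (3600 and 3027 FPKM). The sum of the S3 markers was lowest in replicate 2 with D-serine (406 FPKM) but highest in replicate 2 with vehicle (1166 FPKM). The part of these marker levels in the members' values was not tested. By the root-mean-square difference of centred log2(FPKM + 1) profiles over the 6 libraries, Parp8 (0.052), Srrm1 (0.059) and Gnl2 (0.062) were most like Slc12a3 among 6070 genes of at least 10 FPKM.

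Ratios of members within a library do not depend on how that library was scaled. Trpm6 to Slc12a3 came to 0.0147, 0.0163 and 0.0148 in the vehicle libraries and 0.0167, 0.0191 and 0.0202 in those with D-serine. Pvalb to Slc12a3 came to 0.262, 0.288 and 0.273 in the vehicle libraries and 0.436, 0.322 and 0.361 in those with D-serine. Wnk4 to Wnk1 came to 1.38, 1.41 and 1.60 in the vehicle libraries and 1.88, 2.04 and 1.62 in those with D-serine. For these 3 ratios all D-serine libraries were above all vehicle libraries, which gives the smallest two-sided p that an exact permutation test of 3 against 3 allows, 0.1 (adjusted p = 0.2 over 6 ratios). Calb1 to Slc12a3 came to 0.522, 0.725 and 0.571 in the vehicle libraries and 1.28, 0.611 and 1.01 in those with D-serine, and overlapped through replicate 2 (exact permutation p = 0.2, adjusted p = 0.3). Trpv5 to Slc12a3 and Stk39 to Oxsr1 also overlapped (exact permutation p = 1 and 0.7). No ratio could reach 0.05 with this number of samples. Of single genes, 16.5% had all D-serine libraries above all vehicle libraries, and the share among ratios of other genes was not computed. Wnk4 to Wnk1 was separate only by 1.60 against 1.62, and the ratios of Trpm6 and Pvalb share Slc12a3.

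**Figure D4:**
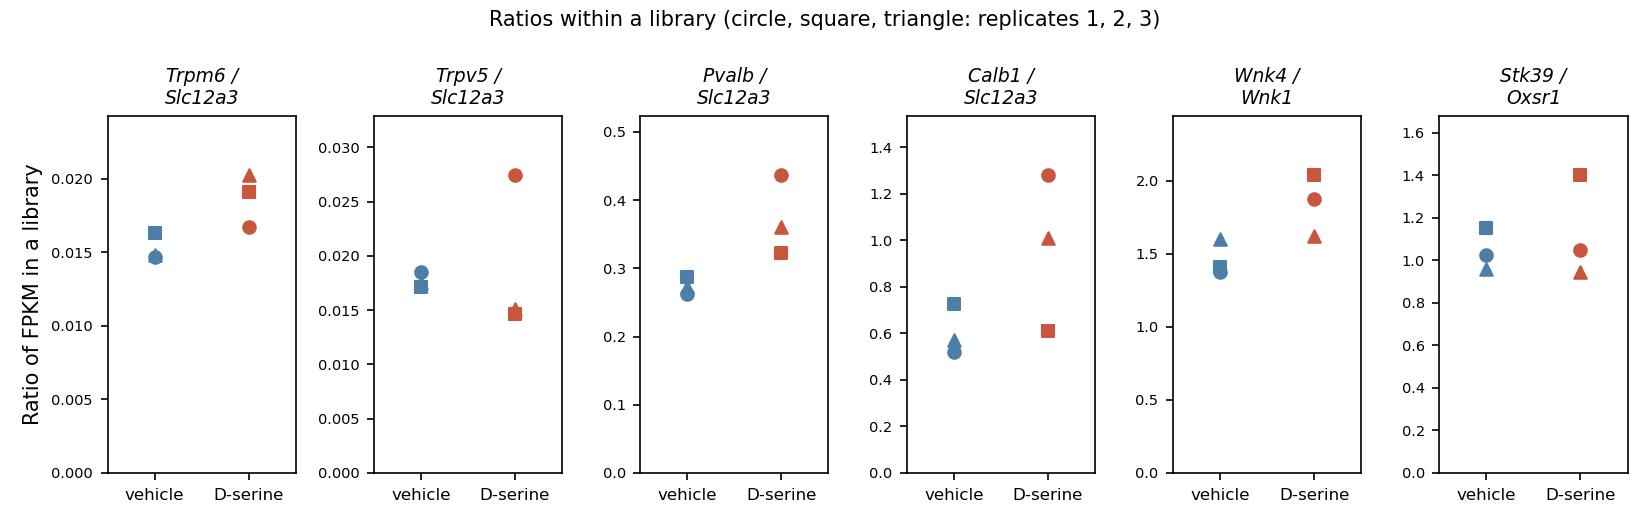
Ratio of FPKM of 2 genes within each library, for 3 vehicle (blue) and 3 D-serine (red) libraries, with linear axes from 0. The ratios of Trpm6 and Pvalb to Slc12a3 and of Wnk4 to Wnk1 have no overlap between the groups, and the other 3 overlap.

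Partners of the WNK cascade and the chloride cotransporters of its family were mostly lower with D-serine. Of 17 listed genes 15 were tested, 4 higher and 11 lower (median log2 difference -0.23), with 0 called in limma. In all, 5 of the 15 had every D-serine library below every vehicle library (among them Klhl2, Slc12a2, Cul3 and Cab39, the last named after its values were seen), where 19.4% of all genes did, and 0 had every one above. At an unadjusted p under 0.05 the same 5 were lower and 0 were higher. Among all genes 27.7% had such a p in either direction, and 13.1% had it with a higher level. Klhl2, the close relative of Klhl3, was at 15.9 ± 1.82 and 10.1 ± 1.36 FPKM (SD, n = 3 each), and Cul3, the scaffold of the ligase, at 52.4 ± 3.84 and 38.6 ± 5.28 FPKM. Slc12a2, the sodium potassium chloride cotransporter NKCC1, was at 9.61 ± 1.79 and 6.48 ± 0.586 FPKM. The limma adjusted p of these 3 lay between 0.069 and 0.095. Wnk2 and Wnk3 did not reach the minimum for testing, with at most 0.526 and 0.0211 FPKM in any library.

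The basolateral transport and identity genes of the segment were split. Of 15 tested, 10 were higher and 5 lower (median log2 difference 0.091), with 0 called in limma (4 higher and 2 lower at an unadjusted p under 0.05, a p that 27.7% of all genes had in either direction). With D-serine replicate 3 left out this median came to 0.27, and with vehicle replicate 2 left out to 0.19. Tfap2a, which encodes the transcription factor AP-2 alpha, measured 2.69, 2.64 and 2.71 FPKM in the vehicle libraries and 4.54, 6.06 and 4.33 in the D-serine libraries (log2 difference 0.69 ± 0.13 SE, limma adjusted p = 0.063, and 0.046 without D-serine replicate 3). It also passed with a pseudocount of 0.01, array weights or small RNA genes left out, and in no other setting. These fits called 221, 269 and 332 genes, and that without D-serine replicate 3 called 608, against 9 in the main fit. Emx1, a homeobox gene, was at 47.4 ± 3.6 and 62.7 ± 7.42 FPKM. Fxyd2, the gamma subunit of the sodium pump (6105, 6442 and 7045 against 7842, 8036 and 7315 FPKM) and Tfap2b, the AP-2 beta gene (8.54, 9.69 and 8.35 against 9.94, 13.7 and 10.2 FPKM) were likewise above in all D-serine libraries and are named after their values were seen. The potassium channel gene Kcnj16 (183 ± 13.4 and 138 ± 17.8 FPKM) was below in all D-serine libraries.

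Genes of distal calcium and magnesium handling also had differences of both signs. All 20 were tested, 9 higher and 11 lower (median log2 difference -0.042), with 0 called in limma (1 higher and 3 lower at an unadjusted p under 0.05, against 27.7% of all genes in either direction). S100g, which encodes calbindin-D9k, the smaller cytosolic calcium carrier of the distal nephron, measured 1528, 2298 and 2469 FPKM in the vehicle libraries and 5061, 6268 and 3676 in the D-serine libraries. The D-serine libraries were all above the vehicle libraries, and the log2 difference of 1.25 ± 0.24 (SE, limma adjusted p = 0.063) was larger than that of Calb1. Without D-serine replicate 3 it was 1.46 and passed (adjusted p = 0.041), as it did with a pseudocount of 0.01 or small RNA genes left out. These fits called 608, 221 and 332 genes, against 9 in the main fit, and S100g passed in no other setting. Egf, whose product is a magnesium-regulating hormone made in the distal nephron, measured 301, 251 and 249 FPKM in the vehicle libraries and 176, 203 and 123 in the D-serine libraries (adjusted p = 0.089). Casr, the calcium-sensing receptor of the thick ascending limb, was at 5.57 ± 0.996 and 3.02 ± 0.946 FPKM, and Atp2b1, a plasma membrane calcium pump, at 7.75 ± 0.526 and 6.0 ± 0.644 FPKM. Another such pump, Atp2b4, went the other way with overlapping groups, at 4.21 ± 0.454 and 5.11 ± 0.817 FPKM, and is named after its values were seen. Slc8a1, the sodium calcium exchanger that works beside the pumps, overlapped, at 14.8, 17.3 and 15.1 against 22.1, 18.2 and 13.6 FPKM. It was not among the 4 genes of smallest p in this list.

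**Figure D5:**
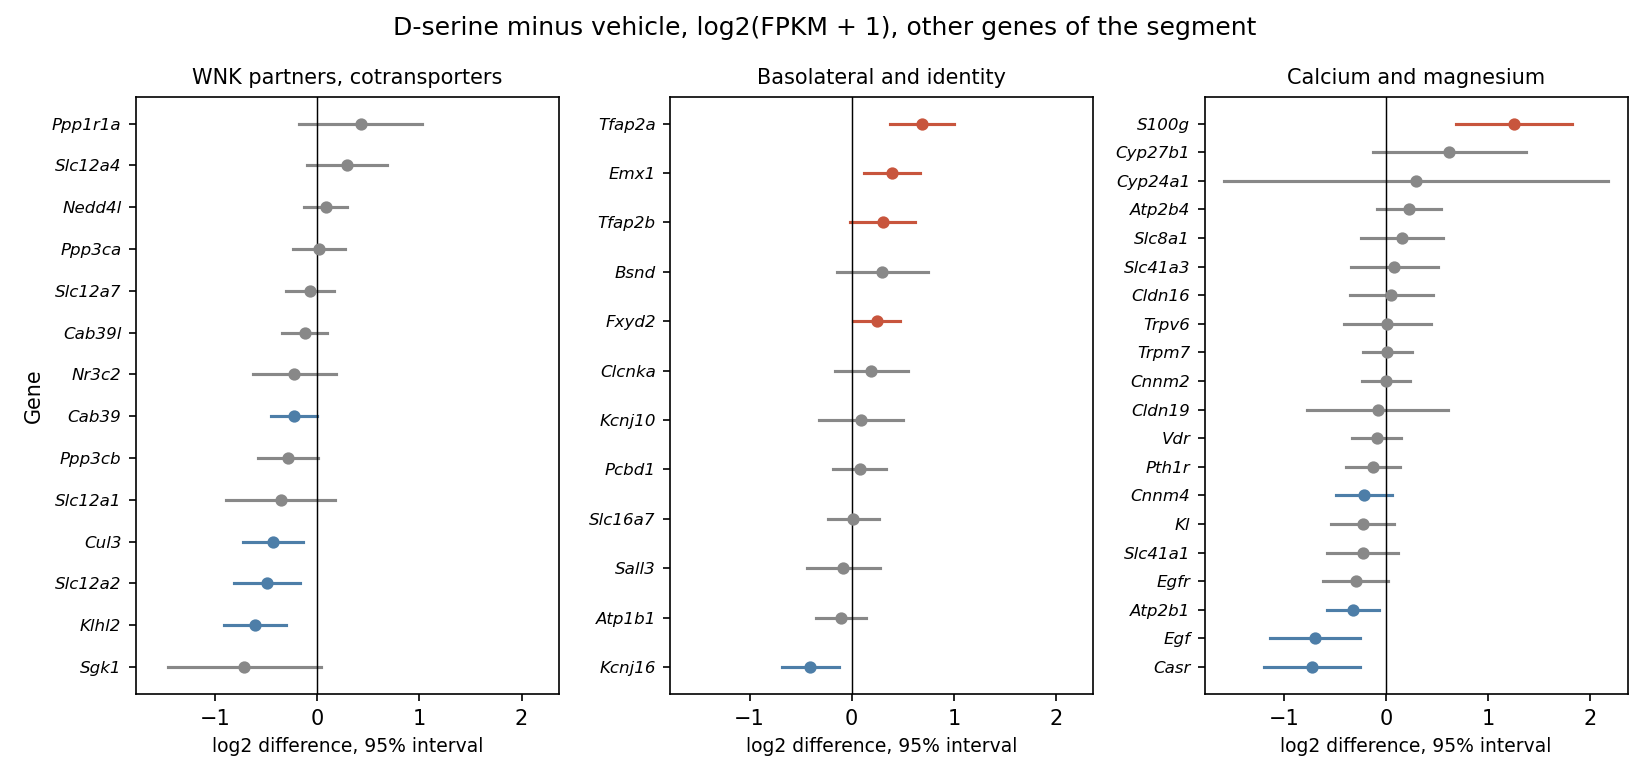
Log2 difference (D-serine minus vehicle, log2(FPKM + 1)) with its 95% interval for genes of 3 lists: 14 WNK partners and chloride cotransporters, 12 basolateral and identity genes, and 20 genes of calcium and magnesium handling. Red marks genes with all D-serine libraries above the vehicle libraries, blue those with all below and grey those that overlap.

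Summed markers of several other cell types stood at separate levels in the groups, and their part in the values above was not tested. All 6 connecting tubule markers were higher, a list that shares Calb1, Trpv5, S100g and Slc8a1 with those above. Of the 6 markers, 3 had all D-serine libraries above all vehicle libraries, as did 16.5% of all genes, and the rest overlapped. Without D-serine replicate 1 or 2 the counts were 5 higher and 1 lower. The 6 summed to 5353 to 7071 FPKM with vehicle and 8983 to 15110 FPKM with D-serine, most of it Klk1 and S100g. Principal cell markers were higher in 8 of 9 (467 to 622 against 685 to 1028 FPKM) and intercalated cell markers in 10 of 10 (294 to 346 against 356 to 480 FPKM). Without D-serine replicate 1 the intercalated count was 9 higher and 1 lower. Thick ascending limb markers were lower in 5 of 7 and overlapped in sum (1267 to 1476 against 853 to 1307 FPKM). All 8 S1 and S2 markers were lower (3600 to 4029 against 3027 to 3454 FPKM), and so were all 6 tested S3 markers (918 to 1166 against 406 to 650 FPKM). Of the 8, 3 had all D-serine libraries below all vehicle libraries, as did 19.4% of all genes, and the rest overlapped. Most of the sum was Slc34a1 (means 2395 and 2147 FPKM), which overlapped. Without vehicle replicate 1 or 3 the S1 and S2 counts were 2 higher and 6 lower. Without D-serine replicate 1 they were 1 higher and 7 lower. Cell division markers were higher in 8 of 8 (12.7 to 18.3 against 65.1 to 229 FPKM) and fibroblast and smooth muscle markers in 6 of 6 tested (21.4 to 28.7 against 34.9 to 65.3 FPKM). Endothelial sums overlapped (15 to 30.9 against 22.4 to 38.1 FPKM), and so did the low leukocyte sums (1.72 to 5.56 against 4.97 to 5.335 FPKM), with Cd3e at 0. Of the 2 leukocyte markers tested, Lyz2 overlapped and Cd68 was above in all D-serine libraries, as were 16.5% of all genes. Cd68 was at 0.566 ± 0.362 and 1.735 ± 0.0559 FPKM (SD, limma adjusted p = 0.078). Adipocyte markers summed to at most 0.208 FPKM, with Plin1, Cfd and Lep at 0. Of the 69 marker genes tested 0 passed in limma, and at an unadjusted p under 0.05 there were 29 higher and 10 lower, against 13.1% of all genes higher and 27.7% in either direction.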

How the data were processed

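Per the labels' protocols, kidney RNA was extracted with TRIzol and sequenced from a stranded mRNA kit. Reads were processed with TopHat2 2.0.13, Bowtie2 2.2.3, SAMtools 0.1.19 and Cufflinks 2.2.1 on mm10, per the submitters' processing notes. For each sample the authors deposited 1 value per gene, taken here as FPKM from the use of Cufflinks and from the values, which are not whole and sum to a different total in each library. The file headers do not name the unit, and no counts were used. The sources used here do not give the annotation, the strand setting or any filter. Because FPKM divides by the fragments of the whole library, an abundant gene presses on all others. Kap alone took up 11.6 to 15.9% of the FPKM sum. That sum is scaled by transcript length, and the share of Kap in the fragments was not computed. From the spacing of low values in 169 genes with 1 annotated transcript, depth came to roughly 7100000 to 8490000 fragments per library.

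The 11737 genes that averaged 1 FPKM or more were fitted with limma 3.58.1 in R 4.3.3 (lmFit, then eBayes with its trend option) on log2(FPKM + 1), 3 against 3, two-sided, with Benjamini-Hochberg adjustment over all of them and a threshold of 0.05. The pseudocount of 1 understates differences of low genes. The script was tested on simulated data. Positions came from GENCODE M21 (mm10) by symbol. Some genes of the related lists enter the counts and medians and are not reported here by name. Otherwise the rule named all members, the 4 genes of smallest p in each of the 3 related lists and the 3 profiles most like Slc12a3. Outside this rule are Cab39, Fxyd2, Tfap2b, Atp2b4, Slc8a1, Sgk1, Wnk2, Wnk3 and the vitamin D genes. From the marker lists only sums and a few leading genes are given. The members and lists were chosen with earlier results of these data known. Same-numbered samples did not deviate together (correlations -0.070, 0.0031 and 0.067), so the numbers were not taken as pairs.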

Additional observations from a re-analysis of the deposited data

How the results depend on the processing

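The count of 9 genes called over the whole table moved to 171 and 221 with pseudocounts of 0.1 and 0.01, 132 with a minimum of 5 FPKM, 15 with median-of-ratios scaling, 269 with array weights, 332 without small RNA genes, 2 with the replicate number as a block, and between 2 and 608 when 1 library was left out (2, 4 and 5 without vehicle replicates 3, 1 and 2, 27 without D-serine replicate 1 and 608 without D-serine replicate 3). The cause was not tested. The block changed no member's call, and the shared numbers do not pair the samples. Over the 18 other settings the log2 difference stayed positive for Calb1 (0.52 to 0.86), Pvalb (0.34 to 0.58), Wnk4 (0.30 to 0.58), Trpm6 (0.12 to 0.45) and Wnk1 (0.022 to 0.22), and negative for Oxsr1 (-0.20 to -0.071). The members' median stayed between 0.060 and 0.22, and 1 of 179 member values passed, Wnk4 without D-serine replicate 3.

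The sign turned for members near 0. Slc12a3 was at -0.037 with array weights and between -0.12 and 0.15 with 1 library left out. Klhl3 was at 0.0034 once the trend with length and GC content was removed, and between -0.20 and 0.063 with 1 library left out. Leaving out 1 library also gave -0.083 to 0.27 for Trpv5, -0.17 to 0.037 for Stk39, -0.25 to 0.20 for the log2 ratio of Trpv5 to Slc12a3 and -0.066 to 0.22 for that of Stk39 to Oxsr1. Klhl3 was not tested with a minimum of 5 FPKM. List medians were added after seeing the data and spanned -0.32 to -0.14 for the WNK partners, 0.066 to 0.27 for the basolateral and identity genes and -0.11 to -0.017 for calcium and magnesium handling. Depth limits Trpv5, Klhl3 and Trpm6 most.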

Other observations

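The enzymes that make and break active vitamin D, which acts on Calb1, S100g and Trpv5 in the distal nephron, varied widely between libraries. Cyp24a1, the degrading enzyme, measured 8.30, 3.13 and 13.1 FPKM in the vehicle libraries and 2.04, 10.2 and 28.1 FPKM in the D-serine libraries. Cyp27b1, the activating enzyme, measured 0.813, 0.602 and 1.64 FPKM in the vehicle libraries and 1.23, 1.60 and 3.80 FPKM in the D-serine libraries. D-serine replicate 3 was the highest of the 6 for both enzymes. Vdr, the vitamin D receptor gene, measured 90.9, 83.4 and 92.7 FPKM in the vehicle libraries and 75.6, 85.1 and 90.0 FPKM in the D-serine libraries. Groups overlapped for all 3 genes, which were chosen after their values were seen, and their part in the levels of Calb1, S100g and Trpv5 was not tested.

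Sgk1, an aldosterone-induced kinase of the distal nephron, measured 36.6, 85.1 and 89.6 FPKM in the vehicle libraries and 43.9, 37.2 and 37.7 FPKM in the D-serine libraries. Vehicle replicates 2 and 3 were above the other 4 libraries. The groups overlapped (limma adjusted p = 0.19), and Sgk1 was not among the 4 WNK partners of smallest p.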
